A study of Mus musculus with 2 samples.

Results

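The genes described here make up an interleukin-17 (IL-17) programme of innate-like T cells. They are the cytokine genes Il17a, Il17f and Il22, the cytokine receptor gene Il23r, the transcription factor genes Rora and Zbtb16, the kinase gene Blk and the receptor genes Il17ra and Il17re. They were chosen by symbol, and all 9 were present among the 27998 genes of both deposited tables. The samples were live CD45+ cells, sorted with 7AAD to leave out dead cells, from subcutaneous tumours of mice 6 to 8 weeks old. One group was WT (C57BL/6J) and the other CD94-KO (C57BL/6J), labelled as a knockout of CD94, a receptor chain of natural killer (NK) cells and some T cells encoded by Klrd1. The data of each library came from 5 tumour-bearing mice, whose cells cannot be told apart in the files, and the labels name no tumour line. Each group had 1 droplet-based 3′ RNA library, which leaves no spread between replicates to test a difference against. Levels are sums of unique molecular identifiers (UMIs) over the cells concerned, given as UMIs per 1000000 UMIs of the same cells (CPM). Brackets hold 95% intervals, which cover counting error and not the spread between animals.

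IL-17A and IL-17F are related cytokines of barrier tissues that act on epithelial and stromal cells and favour neutrophil recruitment. In the mouse they come from T helper 17 cells and from innate-like lymphocytes, above all gamma-delta T cells that are poised for IL-17 production in the thymus. Such cells respond to IL-23 and IL-1β, and are known in tumours, where they can act on neutrophils and macrophages. IL-17A and IL-17F signal through a receptor of the chains encoded by Il17ra and Il17rc, whereas the chain encoded by Il17re pairs with that of Il17ra as a receptor for IL-17C.

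The cytokine genes Il17a and Il17f are neighbours on chromosome 1, and RORα, a nuclear receptor encoded by Rora, is a known regulator of both. In GENCODE M21 on GRCm38, Il17a lies at chr1:20730905-20734496 on the plus strand and Il17f at chr1:20777146-20790617 on the minus strand, 42.65 kb apart. Il23r lies at chr6:67422932-67491855 on the minus strand. The 250 bases before the RefSeq start of these genes (GRCm38.p6) are shown because the 3 genes were, on the mean of both libraries, highest in the same T cells and each window holds the ROR half-site AGGTCA on one strand or the other. Capitals mark AGGTCA, or TGACCT where the match is on the other strand. The Il17a window is chr1:20730655-20730904 on the plus strand, the Il23r window chr6:67491856-67492105 on the minus strand and the Il17f window chr1:20784271-20784494 on the minus strand, without its first 26 bases, which are part of an exon of another Il17f transcript.
Il17a: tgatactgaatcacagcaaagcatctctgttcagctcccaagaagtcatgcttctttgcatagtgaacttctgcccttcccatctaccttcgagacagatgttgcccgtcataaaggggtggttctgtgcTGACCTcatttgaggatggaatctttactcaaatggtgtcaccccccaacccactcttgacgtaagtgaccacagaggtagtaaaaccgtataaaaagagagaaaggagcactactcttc
Il17f: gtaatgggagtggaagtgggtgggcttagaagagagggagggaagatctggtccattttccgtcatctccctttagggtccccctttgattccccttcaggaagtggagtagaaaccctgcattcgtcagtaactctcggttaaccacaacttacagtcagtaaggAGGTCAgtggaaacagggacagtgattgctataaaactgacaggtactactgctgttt
Il23r: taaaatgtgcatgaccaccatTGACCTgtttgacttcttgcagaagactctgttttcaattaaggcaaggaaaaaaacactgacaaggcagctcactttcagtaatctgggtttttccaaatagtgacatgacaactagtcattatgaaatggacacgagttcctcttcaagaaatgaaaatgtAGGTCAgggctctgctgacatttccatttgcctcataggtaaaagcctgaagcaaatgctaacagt
The match began 120 bases before the start of Il17a, 58 bases before that of Il17f, and 229 and 66 bases before that of Il23r. The same windows of Rora, Il17re and Il22 held no match. Of all 32851 promoter windows of this length in the table, 14% held at least 1 match, so a match is a description of these letters and not a site. Zbtb16, Blk and Il17ra had no entry.

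After filtering there were 4388 WT cells with a median of 4768.5 UMIs and 4574 CD94-KO cells with 7799. Cells were placed in 16 gates by raw UMIs of marker genes, none of which was a gene of the programme, and gates are called by the cell type their markers are known for. A gate was given to 55.2% of WT and 78.5% of CD94-KO cells, and cells without one had a median of 797 and 1674 UMIs. T cells carried Cd3 UMIs, and those with at least 2 UMIs of the scavenger receptor genes Cd163l1 and 5830411N06Rik and none of Cd4, Cd8a, Cd8b1 or Foxp3 are called Scart T cells. Both genes are known in gamma-delta T cells, but receptor segment genes were not used here, so these cells were not named gamma-delta T cells. A gate meant for type 2 innate lymphoid cells was led by Areg, and with Lyz2 at 6592 and 6238 CPM (WT and CD94-KO) its cells went against that name, so it is called the Areg-led gate. The sort was for CD45+ cells, yet 140 WT and 65 CD94-KO cells carried collagen genes, with the CD45 gene Ptprc at 10.6 and 15.3 CPM, and these are called non-immune cells. Klrd1 was at 669 CPM in WT and 313 CPM in CD94-KO NK cells, a ratio of 0.468 [0.436 to 0.502]. In other T cells it was at 274 and 250 CPM, a ratio of 0.911 [0.739 to 1.12], and Scart T cells had 5 and 5 UMIs. Which exons were deleted is not in the labels, and whether the Klrd1 UMIs in CD94-KO were 3′ tags of a kept end was not tested. The libraries shared 4 cell barcodes among the kept cells.

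Scart T cells had the highest levels of most of these genes in both libraries. There were 55 of them in WT and 101 in CD94-KO, at median depths of 5878 and 5576 UMIs. They made up 15.1% [11.6 to 19.2] of the 365 WT T cells and 32.5% [27.3 to 38.0] of the 311 CD94-KO T cells. Of all kept cells they were 1.25% [0.946 to 1.63] and 2.21% [1.80 to 2.68]. These last shares also depend on how many kept cells were given a gate, 55.2% in WT and 78.5% in CD94-KO. Cd163l1, which set the gate, stood at 893 and 918 CPM. A median of 3 of the 9 genes was detected per WT Scart T cell and 4 per CD94-KO cell, and 26 (47.3%) and 54 (53.5%) of these cells had at least 4 of them. RNA of other cells was present: the monocyte/macrophage markers summed to 28.8 CPM in WT and 73.4 CPM in CD94-KO, with Adgre1 and Ms4a7 at 0 in WT, the B cell markers to 12.8 and 41.0 CPM, with Cd79a and Ms4a1 at 0 in WT, and the NK markers to 12.8 and 6.83 CPM with Ncr1 at 0 in both. The neutrophil markers summed to 9.60 and 34.1 CPM, with Cxcr2 and Retnlg at 0 in both, and the complement C1q genes to 86.4 and 58.0 CPM. The myeloid gene Lyz2 stood at 413 and 382 CPM, and Cd74, a gene of antigen-presenting cells, at 675 and 575 CPM. Their part in the values below was not tested.

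**Figure D1:**
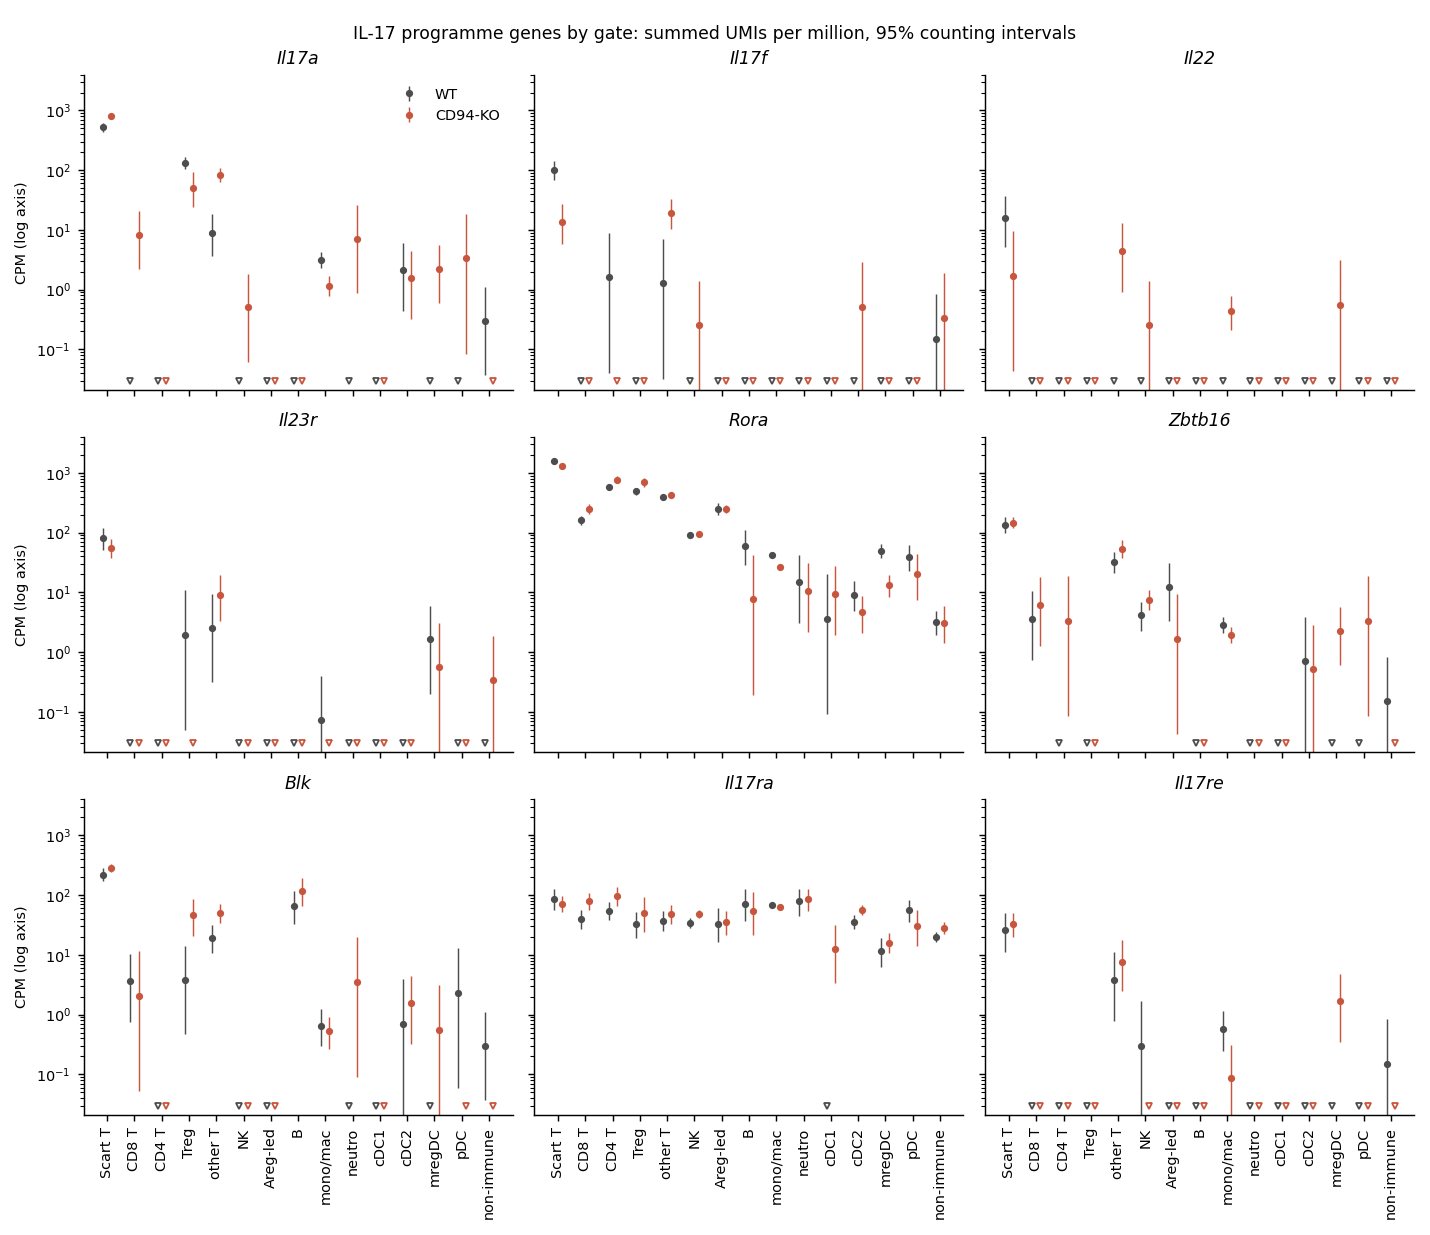
Level of each gene of the IL-17 programme (CPM, log axis) by gate for the WT library (grey) and the CD94-KO library (red). Bars are 95% Poisson intervals of the summed UMIs, and open triangles at the foot mark a gate with no UMI, which has no value on a log axis. The mast/basophil gate, with 4 WT cells, is left out. Il17a, Il17f, Il23r, Zbtb16, Blk and Il17re were highest in Scart T cells in at least one library, Rora was spread over all T cell gates, and Il17ra lay between 11.5 and 96.8 CPM in every gate with a UMI.

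Il17a, the founding cytokine of the family, was found mostly in Scart T cells. It had 163 UMIs in 30 of the 55 WT cells and 481 UMIs in 62 of the 101 CD94-KO cells, which is 522 CPM [445 to 608] and 821 CPM [749 to 898], and the ratio of CD94-KO to WT was 1.57 [1.32 to 1.89]. The share of cells with an Il17a UMI overlapped, at 54.5% [40.6 to 68.0] in WT and 61.4% [51.2 to 70.9] in CD94-KO. With each cell thinned to 1000 UMIs the shares were 30.9% [19.1 to 44.8] and 35.6% [26.4 to 45.8]. In monocyte/macrophage cells, which should lack the gene, an Il17a UMI was found in 0.864% and 0.660% of cells, at median depths of 10095 and 9788 UMIs.

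The ratio of 1.57 rested on where 1 WT cell was placed. That cell had 67 Il17a UMIs, the most of any cell in either library, with 5 UMIs of the scavenger receptor genes and 18 of Cd3, and a single Foxp3 UMI put it in the regulatory T cell (Treg) gate. With Scart T cells kept whatever their Cd4, Cd8 or Foxp3 UMIs, a setting chosen after seeing the data, there were 58 WT and 106 CD94-KO cells with 230 and 495 Il17a UMIs. Their levels were 678 and 767 CPM, a ratio of 1.13 [0.965 to 1.33]. A few cells also carried much of the transcript inside the gate: the 10 cells with the most UMIs held 73.0% of it in WT and 52.6% in CD94-KO. The highest cell had 23 UMIs in WT and 49 in CD94-KO. With 10 such cells left out of each library, a larger part of the 55 WT cells than of the 101 CD94-KO cells, the ratio was 2.45.

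**Figure D2:**
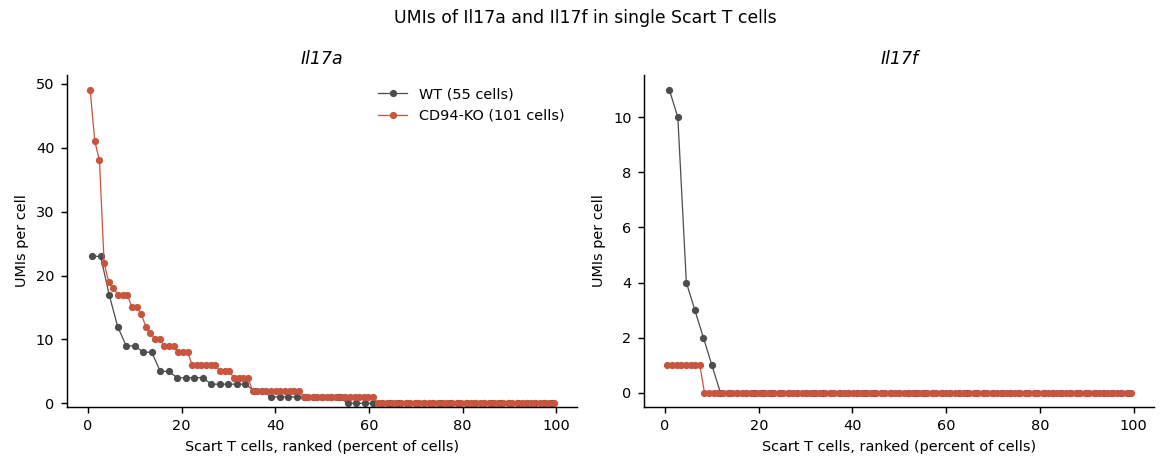
UMIs of Il17a (left) and Il17f (right) in each Scart T cell, with cells ranked from high to low within a library and placed on the x axis as a percent of that library's cells (55 WT, grey, and 101 CD94-KO, red). Il17a reached 23 UMIs in a WT cell and 49 in a CD94-KO cell and was absent from the lower ranks of both libraries. Il17f reached 11 and 10 UMIs in a pair of WT cells, and no CD94-KO cell had more than 1.

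Il17f, whose product can pair with IL-17A, was lower in the CD94-KO Scart T cells. It had 31 UMIs in 6 WT Scart T cells and 8 UMIs in 8 CD94-KO cells, which is 99.2 CPM [67.4 to 141] and 13.7 CPM [5.90 to 26.9], for a ratio of 0.138 [0.0547 to 0.306]. The share of cells with an Il17f UMI was 10.9% [4.11 to 22.2] and 7.92% [3.48 to 15.0]. The difference in level thus lay in UMIs per positive cell: 2 WT cells held 11 and 10 UMIs, whereas each positive CD94-KO cell held 1.

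Il17f in the CD94-KO library lay more often outside the gate. T cells in none of the Scart T, CD8 T, CD4 T and Treg gates are called other T cells. They could carry Cd8a or Cd8b1 UMIs together with Cd4 or Foxp3 UMIs. Foxp3 had 40 UMIs in this gate in WT and 1 in CD94-KO, so its makeup differed between the libraries. Other T cells had 13 Il17f UMIs in 4 of 90 CD94-KO cells and 1 UMI in 110 WT cells. These were levels of 19.6 and 1.28 CPM. In CD94-KO the level of other T cells lay within the interval of the Scart T cells, which had 8 UMIs, so no order was read. One of these CD94-KO cells had 7 UMIs. That cell had 1 UMI of the scavenger receptor genes, where the gate asks for 2. Over all kept cells there were 35 Il17f UMIs in WT and 26 in CD94-KO, at 0.959 and 0.616 CPM, a ratio of 0.642 [0.371 to 1.10].

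The gene pair was seldom detected in the same cell. Of the WT Scart T cells with Il17a, 5 of 30 (16.7%) also had Il17f, and 1 cell had Il17f alone. In CD94-KO the pair was found in 4 of 62 Il17a cells (6.45%), and 4 cells had Il17f alone. None of the 6 WT cells with Il17f had a Zbtb16 UMI, which 29 of the other 49 had, whereas 4 of the 8 CD94-KO cells with Il17f did.

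Most Il17f UMIs of WT Scart T cells lay in a few cells that had the second scavenger receptor gene. In gamma-delta T cells Cd163l1 and 5830411N06Rik are known to mark subsets that use different gamma chains. A UMI of 5830411N06Rik was found in 8 WT Scart T cells (14.5%) and 4 CD94-KO ones (3.96%). Those 8 WT cells held 24 of the 31 Il17f UMIs, at 551 CPM, against 26.0 CPM in the 47 WT cells with Cd163l1 alone. In CD94-KO the 4 cells held 1 of 8 Il17f UMIs, at 42.0 CPM, against 12.5 CPM in the 97 cells with Cd163l1 alone. Il17a was not higher in cells with 5830411N06Rik. Its level was 345 CPM in these WT cells and 550 CPM in those with Cd163l1 alone, and 168 and 849 CPM in CD94-KO. In WT an Il17a UMI was found in 4 of the 8 cells, with 15 UMIs, and in 26 of the 47. In CD94-KO it was found in 1 of the 4 cells, with 4 UMIs, and in 61 of the 97. Of the 24 Il17f UMIs in WT, 21 came from 2 cells, which were among the 3 WT cells with both scavenger receptor genes. The 5 WT cells with 5830411N06Rik alone had 3 Il17f UMIs in 1 cell, at 111 CPM. Il17f was thus not read as following the second gene by itself.

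Il22, the gene of a cytokine that acts on epithelial cells, was barely detected. Scart T cells had 5 UMIs in 3 WT cells and 1 UMI in 1 CD94-KO cell, at 16 CPM [5.19 to 37.3] and 1.71 CPM [0.0432 to 9.51]. All kept cells had 6 and 16 UMIs, and 10 of the CD94-KO UMIs lay in 4 monocyte/macrophage cells, 7 of them in 1 cell with 1 Cd3 UMI. Il22 lies at chr10:118204942-118210047, with the near-identical copy Iltifb at chr10:118289629-118295038, so reads of the pair may have been split or dropped. Iltifb had 1 UMI in each library.

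Outside Scart T cells, Il17a lay in few cells. Treg cells had 69 UMIs in 2 WT cells, 67 of them in the cell described above, and 10 UMIs in 1 CD94-KO cell, at 133 and 51.1 CPM. Other T cells had 7 UMIs in 4 WT cells and 55 UMIs in 8 CD94-KO cells, at 8.97 and 82.7 CPM, a ratio of 9.22 [4.19 to 24.0]. With every gate minimum raised by 1 UMI that ratio was 1.89. Of these cells, 2 in WT and 5 in CD94-KO carried a UMI of the scavenger receptor genes, under the gate's minimum of 2. CD4 T cells had no Il17a UMI in 67 WT and 45 CD94-KO cells, which allows a level of up to 4.85 and 10.0 CPM. NK cells had 0 and 2 UMIs. In monocyte/macrophage cells there were 44 UMIs in 10 WT cells and 27 in 14 CD94-KO cells, and the cells that also had a Cd3 UMI, 5 and 6, held 38 and 19 of them. Scart T cells held 54.3% of the 300 Il17a UMIs of the kept WT cells and 79.2% of the 607 of the CD94-KO cells. With such cells kept whatever their Cd4, Cd8 or Foxp3 UMIs, the shares were 76.7% and 81.5%.

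Il23r, which encodes the IL-23 receptor chain that sustains IL-17 producers, was also highest in Scart T cells. It had 25 UMIs in 20 WT cells and 32 UMIs in 25 CD94-KO cells, or 80.0 CPM [51.8 to 118] and 54.6 CPM [37.4 to 77.1], for a ratio of 0.683 [0.392 to 1.20]. The next gate, other T cells, had 2.56 and 9.03 CPM, and NK, B and CD4 T cells had no UMI in either library. The intervals of the Scart T cells and other T cells did not overlap in either library. An Il23r UMI was found in 36.4% of WT and 24.8% of CD94-KO Scart T cells, and the intervals of these shares overlapped. Among Il17a-positive Scart T cells, 12 of 30 in WT and 16 of 62 in CD94-KO had an Il23r UMI.

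Rora encodes RORα, a nuclear receptor that acts in type 17 cells and is also needed by innate lymphoid cells. It had 495 UMIs in all 55 WT Scart T cells and 769 UMIs in 98 of the 101 CD94-KO cells, at 1584 CPM [1447 to 1730] and 1313 CPM [1222 to 1409], for a ratio of 0.829 [0.739 to 0.930]. It was the programme's most widely spread lineage gene. CD4 T cells had 574 and 768 CPM, Treg cells 493 and 700 CPM, other T cells 400 and 429 CPM, CD8 T cells 163 and 250 CPM, the Areg-led gate 252 and 251 CPM and NK cells 91.2 and 93.5 CPM. Scart T cells stood first in both libraries, and the intervals of CD4 T and Treg cells, next in order, overlapped each other in both.

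The direction of the Rora difference was not shared by the T cell gates. The ratio was above 1 in CD8 T cells at 1.54 [1.19 to 1.98], in CD4 T cells at 1.34 [1.13 to 1.58] and in Treg cells at 1.42 [1.15 to 1.76]. With each cell weighed the same it was 0.995 in CD4 T cells, and without the 10 highest cells 0.968 in Treg cells. In mature regulatory dendritic cells (mregDC) Rora was at 50.1 CPM in WT and 13.3 CPM in CD94-KO, a ratio of 0.266 [0.158 to 0.432], and in monocyte/macrophage cells at 43.1 and 27.0 CPM, a ratio of 0.626 [0.559 to 0.702]. A Cd3 UMI was found in 20.4% of WT and 6.77% of CD94-KO mregDC and in 19.2% and 9.05% of monocyte/macrophage cells. Among those without a Cd3 UMI the ratios were 0.370 and 0.690. With barcodes of high doublet score kept, the mregDC ratio was 0.499.

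Zbtb16 encodes PLZF, the transcription factor of innate-like T cells, invariant natural killer T cells included. It had 42 UMIs in 29 WT and 86 UMIs in 45 CD94-KO Scart T cells, at 134 CPM [96.9 to 182] and 147 CPM [117 to 181], for a ratio of 1.09 [0.747 to 1.62]. The share of cells with a UMI was 52.7% and 44.6%, against 2.59% and 1.93% of monocyte/macrophage cells. Other T cells came next with 25 and 36 UMIs, at 32.0 and 54.2 CPM, a ratio of 1.69 [0.987 to 2.94]. That ratio was 4.97 among cells without a UMI of any other lineage list, from 4 and 14 UMIs, and 4.73 without the 10 highest cells. NK cells had 4.16 and 7.58 CPM, a ratio of 1.82 [0.938 to 3.72], or 4.22 without the 10 highest cells.

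Blk encodes a Src-family kinase of B cells that is also known in IL-17-producing gamma-delta T cells, and it was found in both places. Scart T cells had 69 UMIs in 33 WT cells and 168 UMIs in 77 CD94-KO cells, at 221 CPM [172 to 279] and 287 CPM [245 to 334], for a ratio of 1.30 [0.976 to 1.75]. B cells, with 13 and 23 cells, had 65.3 and 116 CPM. Other T cells had 19.2 and 49.6 CPM, a ratio of 2.58 [1.36 to 5.12], and NK cells had no Blk UMI among 360 WT and 507 CD94-KO cells. Blk was detected in 60.0% [45.9 to 73.0] of WT and 76.2% [66.7 to 84.1] of CD94-KO Scart T cells, and in 21 of 30 and 48 of 62 of those with Il17a. A Blk UMI was found in all 7 WT and 14 of 19 CD94-KO cells with Il17re.

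Il17re was highest in Scart T cells. It had 8 UMIs in 7 WT Scart T cells and 19 UMIs in 19 CD94-KO cells, at 25.6 CPM [11.1 to 50.4] and 32.4 CPM [19.5 to 50.7], for a ratio of 1.27 [0.530 to 3.35]. Other T cells followed with 3.84 and 7.52 CPM, from 3 and 5 UMIs, and their intervals overlapped those of the Scart T cells only in WT. An Il17re UMI was found in 16.7% of the Il17a-positive and 8% of the Il17a-negative WT Scart T cells, and in 12.9% and 28.2% of those in CD94-KO. Il17rc, its neighbour on chromosome 6, had no UMI in Scart T cells.

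Il17ra, the receptor chain shared across the family, was found in nearly every gate. In Scart T cells it had 27 and 42 UMIs, at 86.4 CPM [56.9 to 126] and 71.7 CPM [51.7 to 96.9], for a ratio of 0.830 [0.4999 to 1.40]. Neutrophils had 78.5 and 85.7 CPM, and monocyte/macrophage cells 67.2 and 64.4 CPM from 929 and 1483 UMIs, a ratio of 0.959 [0.883 to 1.04]. The monocyte/macrophage gate held 54.0% of all Il17ra UMIs in WT and 62.4% in CD94-KO. The lowest gates were mregDC, with 11.5 and 16.1 CPM, and conventional type 1 dendritic cells (cDC1), with 0 and 4 UMIs.

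Several lymphoid and dendritic gates had more Il17ra in CD94-KO. CD8 T cells had 39.5 and 80.6 CPM, a ratio of 2.04 [1.25 to 3.35], CD4 T cells 55.0 and 96.8 CPM, a ratio of 1.76 [1.03 to 2.98], type 2 conventional dendritic cells (cDC2) 35.7 and 56.0 CPM, a ratio of 1.57 [1.11 to 2.23], and NK cells 33.9 and 48.8 CPM, a ratio of 1.44 [1.14 to 1.83]. Plasmacytoid dendritic cells (pDC) had 55.5 and 30.2 CPM, a ratio of 0.545 [0.223 to 1.21]. Among T cells and cDC2 without a UMI of any other lineage list few UMIs were left. The ratio there was 0.658 in CD8 T cells from 10 and 3 UMIs, 4.38 in CD4 T cells from 6 and 16 UMIs and 4.05 in cDC2 from 2 and 5 UMIs. In NK cells under the same limit it was 1.18. Without the 10 highest cells the ratio was 1.35 in CD8 T cells, 1.36 in CD4 T cells, 1.80 in cDC2 and 1.58 in NK cells.

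Both chains of the IL-17A and IL-17F receptor were found in the non-immune cells. Il17rc had 105 UMIs in WT and 55 in CD94-KO non-immune cells, at 15.9 and 18.7 CPM, a ratio of 1.18 [0.834 to 1.65], and no other gate had more than 6 UMIs in either library. Il17ra stood there at 19.97 and 28.2 CPM, a ratio of 1.41 [1.06 to 1.88], or 0.909 [0.154 to 6.20] from 3 and 4 UMIs among cells without a UMI of any other lineage list. Monocyte/macrophage cells, with the most Il17ra UMIs, had 6 and 6 Il17rc UMIs, at 0.434 and 0.261 CPM. Il17rd, a receptor chain of the family known to regulate signalling, had 16 and 9 UMIs in non-immune cells, and Il17rb, which encodes the IL-25 receptor chain, had 8 and 5 UMIs in pDC.

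**Figure D3:**
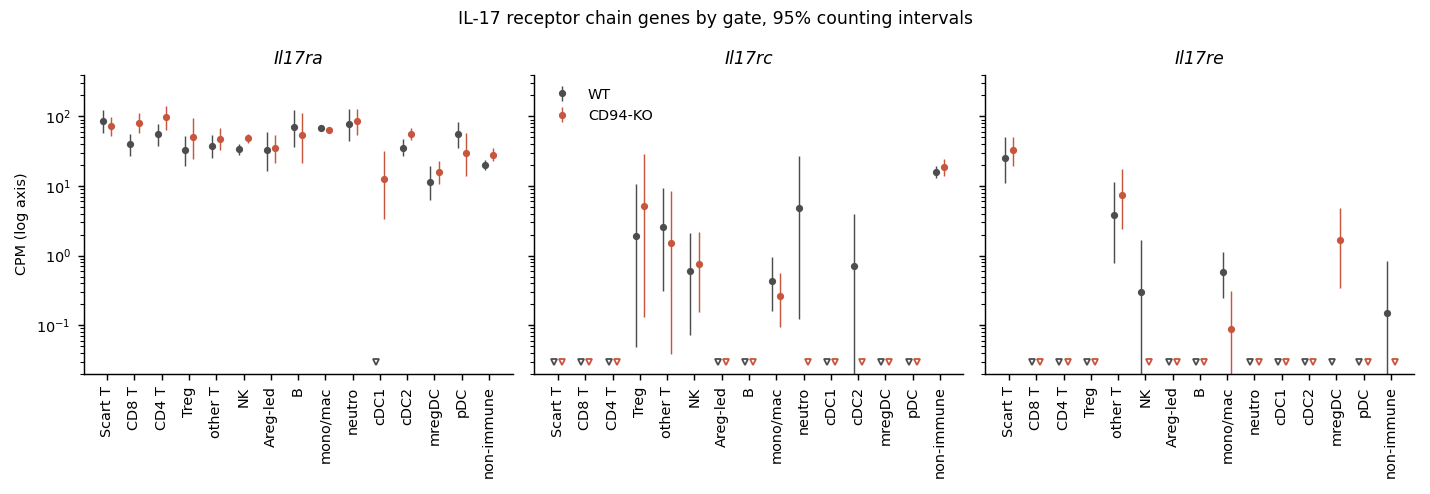
Level (CPM, log axis) of the receptor chain genes Il17ra, Il17rc and Il17re by gate for the WT library (grey) and the CD94-KO library (red), with 95% Poisson intervals. Open triangles at the foot mark gates with no UMI. Il17rc was at 15.9 and 18.7 CPM in non-immune cells, Il17re at 25.6 and 32.4 CPM in Scart T cells, and Il17ra was found in all gates shown, in cDC1 in the CD94-KO library only.

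Set side by side in Scart T cells, Il17a was higher and Il17f lower in CD94-KO by the fold used here. With at least 20 UMIs over both libraries, 8 of the 9 genes were measured, all but Il22. Il17a was at least 1.5-fold higher, where 16.9% of the 4827 genes measured in the gate were, and Il17f at least 1.5-fold lower, where 8.51% were. On the log2(CPM + 5) scale the difference of CD94-KO from WT had a median of -0.06 over the 8 genes and 0.08 over all genes measured. With Scart T cells kept whatever their Cd4, Cd8 or Foxp3 UMIs, 0 of the genes were at least 1.5-fold higher and 2 lower, Il17f and Il23r.

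The same count was made in 7 other gates. In other T cells Il17a, Rora, Zbtb16, Blk and Il17ra were measured, and Il17a, Zbtb16 and Blk were at least 1.5-fold higher (13.2% of all genes measured there) and none lower (10.4%). The median over these 5 genes was 0.68, against 0.06 over all genes measured, and all 5 differences were above 0. Il17a, with 7 and 55 UMIs, reached the minimum of 20 through CD94-KO, so its direction was in part set by that minimum. Blk had 15 and 33 UMIs. With every gate minimum raised by 1 UMI the Il17a ratio was 1.89. No shift of the programme was read from this median. In NK cells Rora, Zbtb16 and Il17ra were measured, and Zbtb16 was higher (11.5%) and none lower (3.52%). In monocyte/macrophage cells 5 genes were measured, of which none was higher (3.52%) and Il17a and Rora were lower (7.24%). Among those without a Cd3 UMI the Il17a ratio was 0.660 [0.201 to 2.31] from 6 and 8 UMIs, under the minimum of 20, and that of Rora 0.690 [0.576 to 0.828]. Among those without a UMI of any other lineage list Rora was at 0.800 [0.545 to 1.19] from 44 and 76 UMIs. In non-immune cells Rora and Il17ra were measured, and neither was higher (12%) or lower (2.93%). In mregDC, of Rora and Il17ra, none was higher (8.66%) and Rora was lower (9.56%). In cDC2 Il17ra was higher (11.1%) and Rora lower (5.01%), the latter from 13 and 9 UMIs at a ratio of 0.508 [0.192 to 1.28]. In neutrophils Il17ra alone was measured and was neither higher (16.7%) nor lower (27.6%).

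Other regulators of type 17 cells were measured in 9 of 11 cases in Scart T cells. In CD94-KO 2 were at least 1.5-fold higher (16.9% of all genes measured there) and 1 lower (8.51%). With TMM scaling, or with Scart T cells kept whatever their Cd4, Cd8 or Foxp3 UMIs, 1 was higher. Sox13, a factor of gamma-delta T cell programming, had 11 and 33 UMIs, a ratio of 1.60 [0.789 to 3.51]. Maf, which encodes a factor needed by IL-17-producing gamma-delta T cells, had 113 and 322 UMIs, at 362 and 550 CPM, a ratio of 1.52 [1.22 to 1.90]. Ahr, the aryl hydrocarbon receptor gene linked to IL-22, had 17 and 18 UMIs, a ratio of 0.565 [0.275 to 1.17]. Only the interval of Maf did not include 1. The median difference over the list was 0.07, against 0.08 over all genes measured.

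Of 9 factors of other lymphocyte programmes 4 were measured. Foxp3 is on this list, but the gate took only cells without its UMIs, and Eomes is an NK gate marker. The levels of this pair were thus set at least in part by the gate. Id2 and Lef1 were at least 1.5-fold higher (16.9% of all genes measured in Scart T cells) and none was lower (8.51%). Id2, needed by innate lymphoid and effector cells, had 118 UMIs in 41 WT cells and 480 UMIs in 84 CD94-KO cells, at 378 and 819 CPM, a ratio of 2.17 [1.77 to 2.68]. Lef1 had 7 and 25 UMIs, a ratio of 1.91 [0.801 to 5.22]. It reached the minimum for a measured gene through CD94-KO, so its direction was in part set by that minimum. The NK marker list had 4 UMIs in each library.

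The receptors for inducing cytokines were present in the same cells. Of 18 inducer and receptor genes 9 were measured. Il1b was at least 1.5-fold higher (16.9% of all genes measured in Scart T cells) and Il12rb1 lower (8.51%). Il1r1, the IL-1 receptor gene, was highest in Scart T cells, at 166 and 186 CPM, a ratio of 1.12 [0.797 to 1.59], as were Il18r1 at 275 and 396 CPM, a ratio of 1.44 [1.12 to 1.87], and Il7r at 950 and 1000 CPM, a ratio of 1.05 [0.914 to 1.21]. Il12rb1, the chain that Il23r pairs with, was at 76.8 and 49.5 CPM, a ratio of 0.645 [0.362 to 1.16]. Il1b itself was at 221 and 333 CPM, a ratio of 1.51 [1.14 to 2.01], while neutrophils had 8937 and 11915 CPM of it. The IL-23 subunit genes came from other gates: Il12b, the subunit shared with IL-12, was highest in mregDC, at 246 and 313 CPM, and Il23a in neutrophils, at 44.1 and 118 CPM from 9 and 33 UMIs.

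Among 9 other cytokines of type 17 lymphocytes 5 were measured. Of these 1 was at least 1.5-fold higher (16.9% of all genes measured in Scart T cells) and none lower (8.51%). The higher gene was Areg, which encodes the epidermal growth factor receptor ligand amphiregulin. It had 12 UMIs in 8 WT cells and 160 UMIs in 28 CD94-KO cells, at 38.4 and 273 CPM, a ratio of 7.11 [3.96 to 14.1], and 10 cells held 83.8% of the CD94-KO UMIs. Areg stood at 1948 and 3512 CPM in the Areg-led gate, and its part in the Scart T level was not tested. Tnf was at a ratio of 1.49 [0.867 to 2.66], Furin at 1.16 [0.932 to 1.45], Csf2 at 0.830 [0.335 to 2.17] and Lta at 0.722 [0.369 to 1.44].

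Of 18 surface and other genes known in IL-17-producing gamma-delta T cells 17 were measured, and 15 of them were within 1.5-fold between the libraries. Both gate genes are on this list, with Cd163l1 among the 15. Their levels were in part set by the gate and tell nothing more about it. S100a4 was at 2557 and 2825 CPM, Cxcr6 at 950 and 859 CPM and Tmem176b at 752 and 630 CPM, ratios of 1.11 [1.02 to 1.20], 0.904 [0.781 to 1.05] and 0.838 [0.709 to 0.991]. Aqp3, a water and glycerol channel gene, was at least 1.5-fold higher (16.9% of all genes measured in the gate). It was at 73.6 and 149 CPM, a ratio of 2.02 [1.26 to 3.35]. The gate gene 5830411N06Rik was lower (8.51%), at 60.8 and 13.7 CPM, from 19 UMIs in 8 cells and 8 UMIs in 4 cells. None of the 7 other ligands and receptors of the IL-17 family was measured in Scart T cells. Of 10 genes of IL-17 receptor signalling 6 were measured there. Traf2, an adaptor gene, was at least 1.5-fold higher (16.9%) and none was lower (8.51%). Traf2 had 5 and 22 UMIs, a ratio of 2.35 [0.867 to 7.94]. It reached the minimum for a measured gene through CD94-KO, so its direction was in part set by that minimum.

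**Figure D4:**
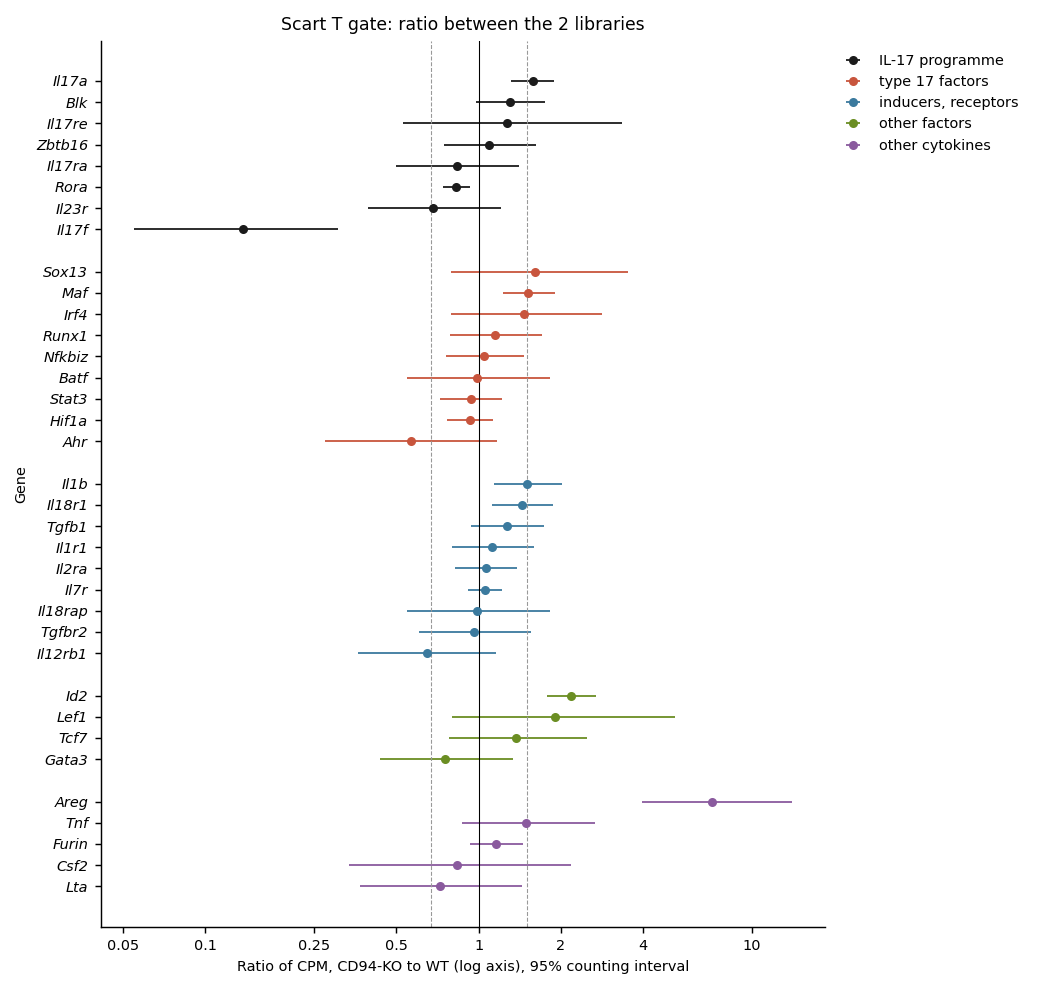
Ratio of CPM in CD94-KO to WT Scart T cells (log axis) for genes with at least 20 UMIs over both libraries, by list: IL-17 programme (black), type 17 factors (red), inducers and receptors (blue), factors of other lymphocyte programmes (green) and other cytokines (purple). Bars are exact 95% intervals that cover counting error only, the solid line marks a ratio of 1 and dashed lines 1.5-fold either way. Il17f at 0.138 and Areg at 7.11 lay farthest from 1, and most intervals included 1.

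Genes that cells are known to switch on under IL-17 were looked at in non-immune cells, which had both receptor chain genes, in monocyte/macrophage cells, which had most of the Il17ra UMIs but few of Il17rc, and in neutrophils. In non-immune cells 9 of 15 such genes were measured, 4 at least 1.5-fold higher in CD94-KO (12% of all genes measured there) and 3 lower (2.93%). The neutrophil chemokine gene Cxcl1 was at 737 and 489 CPM, a ratio of 0.664 [0.625 to 0.704], Cxcl2 at 270 and 116 CPM, a ratio of 0.429 [0.381 to 0.483], and the monocyte chemokine gene Ccl2 at 2340 and 1386 CPM, a ratio of 0.592 [0.572 to 0.613]. Cxcl5, another neutrophil chemokine gene, had no UMI in WT and 124 in CD94-KO. Il6 had 3 and 24 UMIs, Mmp3 1 and 23, and Csf2 284 and 194, at 43.0 and 66.0 CPM. Cxcl5, Il6 and Mmp3 reached the minimum for a measured gene through CD94-KO. Their direction was thus in part set by that minimum.

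In monocyte/macrophage cells 12 of the 15 were measured, 5 at least 1.5-fold higher (3.52%) and 1 lower (7.24%). Mmp9, a gelatinase gene, was at 2.67 and 37.0 CPM, a ratio of 13.8 [9.95 to 19.8], and the growth factor gene Csf3 at 2.17 and 4.56 CPM, a ratio of 2.10 [1.39 to 3.27]. S100a8 and S100a9, genes of neutrophils above all, were at ratios of 1.89 [1.52 to 2.36] and 2.003 [1.43 to 2.86], and both are neutrophil gate markers. Mmp13 was at a ratio of 1.54 [1.33 to 1.78], and Csf2 at 0.343 [0.125 to 0.877] from 14 and 8 UMIs. Cxcl2, the most abundant, was at 7924 and 7563 CPM. In neutrophils 8 were measured, with Cxcl2, Ccl2 and Mmp9 at least 1.5-fold higher (16.7%) and Il6 lower (27.6%), the last from 17 and 4 UMIs. Cxcl2 stood there at 24633 and 43886 CPM, a ratio of 1.78 [1.72 to 1.84]. Whether IL-17 had a part in any of these values was not tested.

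Across gates, the genes reported here whose pattern was most like that of Il17a were Sox13, Cryba4, Abi3bp, Itgae and Coro2b. Their Pearson r with Il17a lay between 0.91 and 0.93 over 26 points, the WT and CD94-KO values of log2(CPM + 5) in 13 gates of at least 20 cells, and 11250 genes were ranked. Abi3bp was the closest to Blk, at 0.97, and Coro2b was among the 5 closest to Il17f, Il23r, Zbtb16, Blk and Il17re as well. B cells, the next highest gate for Blk, had 13 WT cells and were not among the 13 gates. The ranking for Blk thus leaves out its level in B cells. Kcnk1, a potassium channel gene at 70.4 and 41.0 CPM in Scart T cells, was the closest to Il23r (0.96), Il17re (0.97), Il17f (0.95), Zbtb16 (0.93) and Il22 (0.87). These patterns rest on 1 gate that stands far above the rest. Rora was nearest to genes of T cells in general, Icos (0.97), Cxcr6, Ikzf3 and Lat among them, with Epas1 (0.92) the fifth, and Il17ra to none as closely, with Ppp2r5a first at 0.80. The points share their libraries and gates and are not independent, so no p-value is given.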

How the data were processed

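The deposited values are raw UMI counts for each gene and barcode. Cell Ranger 5.0.0 is named in the file headers, and the authors kept only cell-associated barcodes, per the labels' protocols. The submitters' processing notes name mm10 and Seurat 4.0. Minimums of 500 UMIs and 300 genes per barcode and a limit of 10% mitochondrial UMIs were applied. Scrublet's automatic threshold (scanpy 1.11.5) marked 1 WT and 0 CD94-KO barcodes, too few to be of use, and the top 4% by score were taken out instead. The kept cells held 36482364 (WT) and 42210515 (CD94-KO) UMIs.

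A gate needed at least 3 UMIs of its marker list and at least 2 times those of every other list. The Areg-led list did not count against others. A planned gamma-delta gate kept 2 of its markers, Cd163l1 and 5830411N06Rik, because 4 receptor segment genes were not used here, and was therefore not named. UMIs were summed per library and gate. Intervals at 95% are Poisson for CPM, Clopper-Pearson for shares and conditional binomial for ratios (scipy 1.17.1), and cover counting error only. A count of 0 allows up to 3 counts. No test was run, for want of replicates. A gene was measured at 20 UMIs or more over both libraries and called higher or lower in size at 1.5-fold. Genes named were all those of the programme, the 5 most like each in pattern (at least 50 UMIs), and list genes past 1.5-fold in Scart T cells or at the highest level. For target genes in other gates, those past 1.5-fold were named after their values were seen. The members and lists were chosen with earlier results of these data known. Scripts were tested on simulated data. Some genes of the lists and rankings are not reported here, and their counts leave them out. Cebpd is not used here.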

Additional observations from a re-analysis of the deposited data

Results flagged for a closer look

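Programme transcripts were also present in barcodes removed for a high doublet score, which no comparison used. In WT these held 21 Il17a UMIs, in 4 barcodes that all had Cd3 UMIs. They also held 41 Il22 UMIs, all in 1 barcode of 28207 UMIs with 15 UMIs of the monocyte/macrophage markers and none of Cd3, while the kept WT cells had 6 Il22 UMIs in all. In CD94-KO the removed barcodes held 9 Il17a UMIs in 5 barcodes with Cd3 UMIs. They also held 6 Il17f UMIs in 1 barcode of 15649 UMIs that had 9 Cd3 UMIs and 15 of the monocyte/macrophage markers. Each library is a single sample, so these are values of single barcodes.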

How the results depend on the processing

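No paired analysis was possible because each genotype had 1 library, and no replicate could be left out. Of 365 comparisons of 73 results with an alternative, 316 stayed within the main interval or count, 48 moved and 1 reversed. These counts do not measure how firm the results are. Intervals from few UMIs are wide, so a value can stay within one and still differ much. A minimum of 1000 UMIs per barcode left all 36 of its comparisons the same, and the Il17a ratio in Scart T cells unchanged at 1.57. The Il17a ratio in Scart T cells, 1.57, was 1.13 with cells kept whatever their Cd4, Cd8 or Foxp3 UMIs (chosen after seeing the data) and 2.45 without the 10 highest cells of each library, the latter for Il17f leaving no value. Genes of the programme at least 1.5-fold higher there numbered 1, or 0 with those cells kept. Those at least 1.5-fold lower numbered 1, or 2 with those cells kept, 2 with TMM scaling and 2 with no minimum beyond 1 UMI. The Il17ra ratio in CD8 T cells reversed, from 2.04 to 0.658, among cells without a UMI of any other lineage list, which left 14 WT and 8 CD94-KO cells. TMM scaling shifted log2 values by 0.04 in Scart T, 0.12 in NK, -0.04 in monocyte/macrophage and 0.14 in non-immune cells. Depth limits low genes: with Scart T cells thinned to 1000 UMIs, Il23r was left in 0% of WT and 7.92% of CD94-KO cells and Il17re in 0% and 1.98%, so no order was read from those shares.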
